A study of Homo sapiens with 5 samples.

Results

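Metallothioneins are small, cysteine-rich proteins that bind zinc, copper and cadmium, and their genes lie side by side on chromosome 16. The family was taken as the 10 genes MT1X, MT2A, MT1A, MT1B, MT1E, MT1F, MT1G, MT1H, MT1M and MT3, and 9 of them were measured among 14812 genes in all. MT1A had no probe set named for it and is not analysed here. A member was measured where a probe set of the array carried its name alone, and where a gene had several, 1 was selected on its mean log2 intensity over all arrays. Each of the 9 members had 1 probe set, so that rule decided nothing for them. The genes were chosen with earlier results of these data known, in which MT1X stood among the larger increases, so the values below are not independent evidence for the family.

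The samples were LNCaP, a human prostate cancer cell line that responds to androgens, carrying either a retroviral short hairpin RNA against RB1 (shRB, 3 arrays) or a scrambled hairpin (shControl, 2 arrays). Both populations were selected with puromycin, both received 10 Gy of ionizing radiation, and RNA was taken from both 24 h later, so every array is of irradiated cells. The labels do not tell whether replicate arrays stem from different cultures, so p-values measure just the spread between these arrays, which may be technical. RB1 encodes the retinoblastoma protein, which holds back E2F-driven entry into S phase.

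In most tissues the ubiquitous members MT1X and MT2A buffer free zinc and copper and take up reactive oxygen species. Their transcription is switched on by the zinc-sensing factor MTF1, which binds metal response elements in their promoters, and also by glucocorticoids and oxidative stress. MT3 is known chiefly from brain. The comparison of shRB with shControl arrays asked how this family stood in irradiated cells that carried the hairpin against RB1.

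RB1 itself, the target of the hairpin, had a log2 intensity of 5.16, 5.28 and 5.20 in shRB, against 5.81 and 5.70 in shControl. The groups did not overlap, as in 15.4% of all genes in this direction. The difference of -0.54 (SE 0.14) did not pass the limma test (adjusted p = 0.0967). Array medians lay between 26.65 and 28.06 on the deposited linear scale. Arrays correlated across genes at r = 0.983 to 0.986 within shRB, the shControl pair at r = 0.966, and pairs of an shRB with an shControl array at r = 0.955 to 0.97, so the shControl arrays were no more alike than some pairs across groups. All 8 measured LNCaP and prostate luminal markers of 12 listed lay above the median gene, with mean log2 intensities of 6.47 to 10.1. Their summed log2 level was 64.5 to 65.1 in shRB, below the 66.2 to 66.6 in shControl. In 3 of the 8, HOXB13, KRT18 and TARP, arrays did not overlap, all lower in shRB, beside 36% of all genes (15.4% lower). TARP passed (-1.43, adjusted p = 0.0028), and without it the sums were 58.7 to 58.9 in shRB and 58.7 to 59.1 in shControl. The part of this shift in the differences below was not tested. The 3 fibroblast and stromal markers lay at 4.35 to 4.89, near the floor of the deposited values at 4, with summed log2 levels of 13.5 to 13.7 in shRB and 13.4 to 13.7 in shControl. Of 4 basal markers (4.63 to 5.26) and 3 blood and endothelial markers (4.42 to 6.97), 0 passed the limma test at an adjusted p under 0.05. In the basal list and in the blood and endothelial list 1 gene each was below 0.05 unadjusted, and in the fibroblast and stromal list 0. Of all genes, 1.07% passed and 18.1% were below 0.05 unadjusted, so these counts say little about the markers.

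MT1X was higher on the shRB arrays, and was the member that passed the test. Its log2 intensity was 8.99, 8.84 and 9.52 in shRB replicates 1 to 3, against 7.95 and 7.85 in shControl replicates 1 and 2. Every shRB array lay above both shControl arrays, and shRB replicate 3 stood highest. MT1X averaged 9.11 ± 0.36 on the shRB arrays (SD, n = 3) and 7.90 ± 0.07 on the shControl arrays (SD, n = 2). The log2 difference was thus 1.21, with SE 0.20 and a 95% interval from 0.78 to 1.64, which is 2.32-fold higher on the deposited scale. This passed limma's test with Benjamini-Hochberg adjustment over all genes (adjusted p = 0.0182). On these arrays more cells that transcribe MT1X and more transcript per cell cannot be told apart. The size varied little with the arrays used, from 1.01 without shRB replicate 3 to 1.35 without shRB replicate 2, while the call did not hold: with shRB replicate 1, 2 or 3 left out MT1X missed the threshold (adjusted p = 0.111, 0.0622 and 0.106), and it passed without shControl replicate 1 (0.0324) or 2 (0.0477). When 16, the apparent added constant, was subtracted and 4 added before the logarithm, the difference was 1.25 and did not pass (adjusted p = 0.14).

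MT2A, the other widely expressed member, was also higher on every shRB array, and did not pass the test. Its log2 intensity was 9.62, 9.42 and 9.60 in shRB, against 9.02 and 8.74 in shControl. The lowest shRB array lay 0.40 above the highest shControl array on the log2 scale. Averages of 9.55 ± 0.11 on the shRB arrays (SD, n = 3) and 8.88 ± 0.20 on the shControl arrays (SD, n = 2) gave a difference of 0.67 (SE 0.16, 95% interval 0.33 to 1.02, adjusted p = 0.0708), or 1.59-fold. Among the fits with an array left out, MT2A passed without shControl replicate 1 (0.82, adjusted p = 0.0415) and in none of the other 4, with adjusted p-values from 0.138 to 0.295.

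MT1H, a metal-inducible member next to MT1G in the cluster, lay on the opposite side. It had a log2 intensity of 4.38, 4.42 and 4.52 in shRB, against 4.90 and 5.23 in shControl. No shRB array reached a shControl array, and the shRB values were within 0.52 of the floor. MT1H averaged 4.44 ± 0.07 on the shRB arrays (SD, n = 3) and 5.06 ± 0.23 on the shControl arrays (SD, n = 2), a difference of -0.62 (SE 0.16, 95% interval -0.97 to -0.28) that did not pass (adjusted p = 0.0871). On the linear scale these were 20.81, 21.45 and 22.89 in shRB, against 29.86 and 37.5 in shControl, where no deposited value lies below 16. With that constant taken off, the mean shRB level was 0.32 of the shControl level, against 0.65 as deposited, so the size of the difference depends on the constant. MT1H passed without shControl replicate 1 (-0.79, adjusted p = 0.0415) and in none of the other 4 fits with an array left out.

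**Figure D1:**
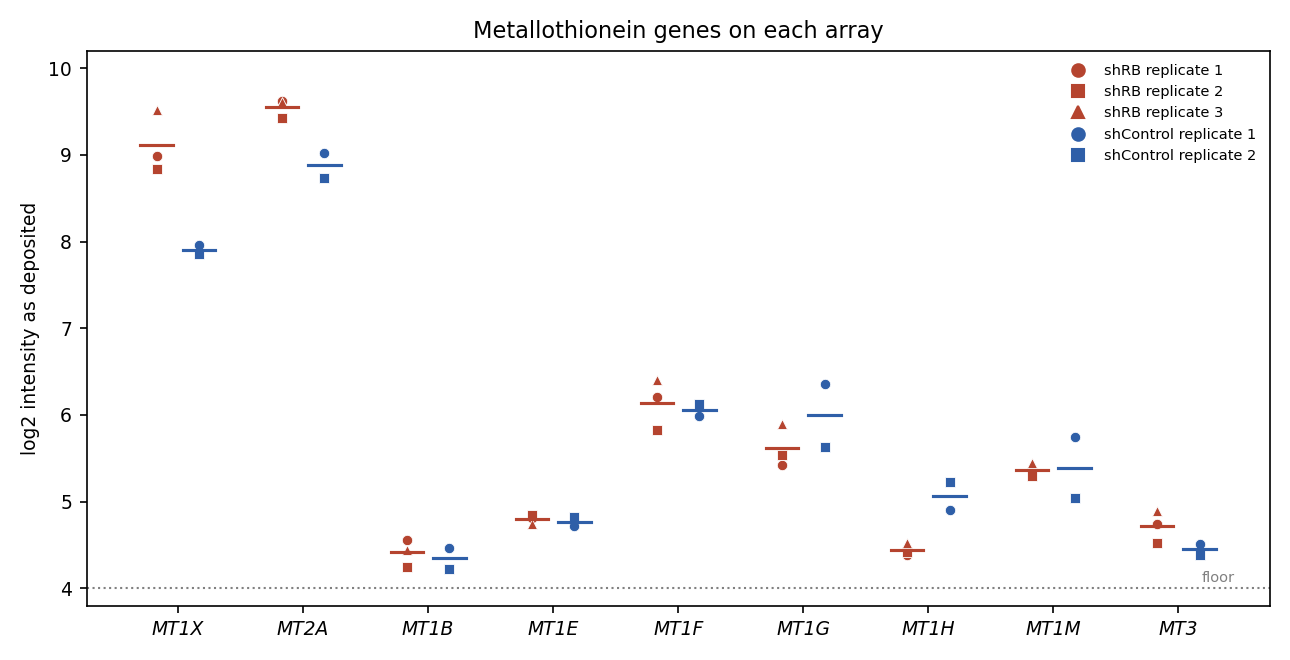
Log2 intensity (vertical axis) of the 9 measured metallothionein genes on each array, with shRB arrays in red at the left of each gene and shControl arrays in blue at the right. Points are arrays, horizontal bars are group means, and the dotted line is the floor of the deposited values at 4. The groups are apart for MT1X, MT2A, MT1H and, narrowly, MT3.

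The 250 bases before the transcription start are shown for the 4 measured members with an entry in the RefSeq promoter table of build GRCh38.p14. They comprise the 3 genes just described and MT1B, which did not differ between groups by more than its spread. Capitals mark matches to the core of the metal response element, spelled TGCACNC or TGCGCNC, on either strand; a match on the minus strand reads as its reverse complement.
MT1X (chr16:56682220-56682469, plus strand): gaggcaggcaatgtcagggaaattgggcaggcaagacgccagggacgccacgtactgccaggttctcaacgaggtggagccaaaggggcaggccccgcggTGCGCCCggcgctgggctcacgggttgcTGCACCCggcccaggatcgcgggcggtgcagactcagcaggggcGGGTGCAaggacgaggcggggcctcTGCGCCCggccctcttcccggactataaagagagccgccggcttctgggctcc
MT2A (chr16:56608334-56608583, plus strand): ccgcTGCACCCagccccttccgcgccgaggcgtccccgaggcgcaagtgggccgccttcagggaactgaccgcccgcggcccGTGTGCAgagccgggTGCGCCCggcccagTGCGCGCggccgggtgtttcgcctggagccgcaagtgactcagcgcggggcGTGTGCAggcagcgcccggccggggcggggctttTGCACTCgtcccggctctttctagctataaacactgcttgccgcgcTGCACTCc
MT1H (chr16:56669564-56669813, plus strand): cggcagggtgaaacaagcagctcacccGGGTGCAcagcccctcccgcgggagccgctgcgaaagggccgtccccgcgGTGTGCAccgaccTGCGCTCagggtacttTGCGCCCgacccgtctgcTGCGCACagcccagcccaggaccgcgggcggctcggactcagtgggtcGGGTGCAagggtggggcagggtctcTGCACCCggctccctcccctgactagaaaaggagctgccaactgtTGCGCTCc
MT1B (chr16:56651636-56651885, plus strand): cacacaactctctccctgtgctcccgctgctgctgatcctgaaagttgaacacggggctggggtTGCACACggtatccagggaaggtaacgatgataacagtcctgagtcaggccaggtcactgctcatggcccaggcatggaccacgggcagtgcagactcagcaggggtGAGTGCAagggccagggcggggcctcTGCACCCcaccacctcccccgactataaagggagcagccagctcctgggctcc

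These letters occurred 4 times before MT1X, 7 times before MT2A, 8 times before MT1H and 3 times before MT1B. Of 35116 promoters of the same length in the table, 24.8% held at least 1 match, 1.58% at least 3 and 0.37% at least 4. The promoters of MT1X and MT2A, which were higher in shRB, and of MT1H, which was lower, thus each carried several matches. With 4 promoters, any link of this number to the differences was not tested. A match from 53 to 47 bases before the start was shared by MT1X, MT1H and MT1B, and MT2A had one from 54 to 48. A TATA box (TATAAA, either strand, in 10.7% of all promoters) was found 30 bases before the start of MT1X and MT1B and 29 before MT2A, and not in the window of MT1H. The letters TGACNNNGC of the antioxidant response element (either strand, 10.9% of all promoters) occurred once each before MT1X, MT2A and MT1B. The E2F letters TTTGGCGC and TTTCCCGC (either strand, 1.93% of all promoters) occurred in 0 of the 4 windows. Across the 4 windows 0 of these matches overlapped another. Compared base by base without gaps over the last 100 bases, MT1X was identical to MT1H at 66 positions and to MT1B at 62, and to MT2A at 34. A count without gaps is low where sequences are offset, as at the TATA box of MT2A, so 34 does not measure relatedness. Matches are a description of the letters, and binding was not measured.

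Among the remaining members, MT3 had arrays that did not overlap and the others did. MT3, also called growth inhibitory factor, had a log2 intensity of 4.74, 4.52 and 4.89 in shRB, against 4.51 and 4.39 in shControl. Its groups were apart by 0.015 on the log2 scale, near the floor, and the difference of 0.27 (SE 0.16) did not pass (adjusted p = 0.399). MT1G, a metal-inducible isoform, had 5.42, 5.54 and 5.89 in shRB, against 6.36 and 5.63 in shControl. Its highest value was shControl replicate 1, and shControl replicate 2 lay inside the shRB range. The difference was -0.38 (SE 0.22, adjusted p = 0.391), and it shrank to -0.02 without shControl replicate 1 and reached -0.74 without shControl replicate 2.

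MT1M behaved in the same array-dependent way. It stood at 5.33, 5.30 and 5.44 in shRB, between the shControl values of 5.74 and 5.04. The difference was -0.03 (SE 0.20, adjusted p = 0.95), and turned to 0.31 without shControl replicate 1. MT1F, which is induced by metals in many cell types, had 6.20, 5.82 and 6.40 in shRB, against 5.99 and 6.13 in shControl. The shControl arrays lay inside the shRB range, and the difference of 0.08 (SE 0.18, 95% interval -0.32 to 0.48) did not pass (adjusted p = 0.843).

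MT1E and MT1B were dim on every array. MT1E had a log2 intensity of 4.82, 4.85 and 4.74 in shRB, against 4.71 and 4.83 in shControl (difference 0.03, SE 0.14, adjusted p = 0.936). MT1B had 4.56, 4.25 and 4.45 in shRB, against 4.47 and 4.22 in shControl (difference 0.07, SE 0.16, adjusted p = 0.846). The groups overlapped in both genes. The 95% intervals, -0.29 to 0.35 for MT1E and -0.28 to 0.43 for MT1B, leave room for changes of either sign in the compressed range near the floor.

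Of the 9 members, 1 passed the test, MT1X, and 0 were lower at that threshold, where 159 of all genes or 1.07% were called. Increases made up 0.695% of all genes and decreases 0.378%. At an unadjusted p under 0.05 there were 3 members, MT1X, MT2A and MT1H, beside 18.1% of all genes. Arrays did not overlap in 4 members, 3 higher and 1 lower in shRB, beside 36% of all genes (20.6% higher and 15.4% lower). The median difference was 0.07 over the members, 6 positive and 3 negative, and 0.02 over all genes. The members' differences ran from -0.62 to 1.21. Of the 9, 5 had a mean log2 intensity above that of the median gene, namely MT1X, MT2A, MT1F, MT1G and MT1M.

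**Figure D2:**
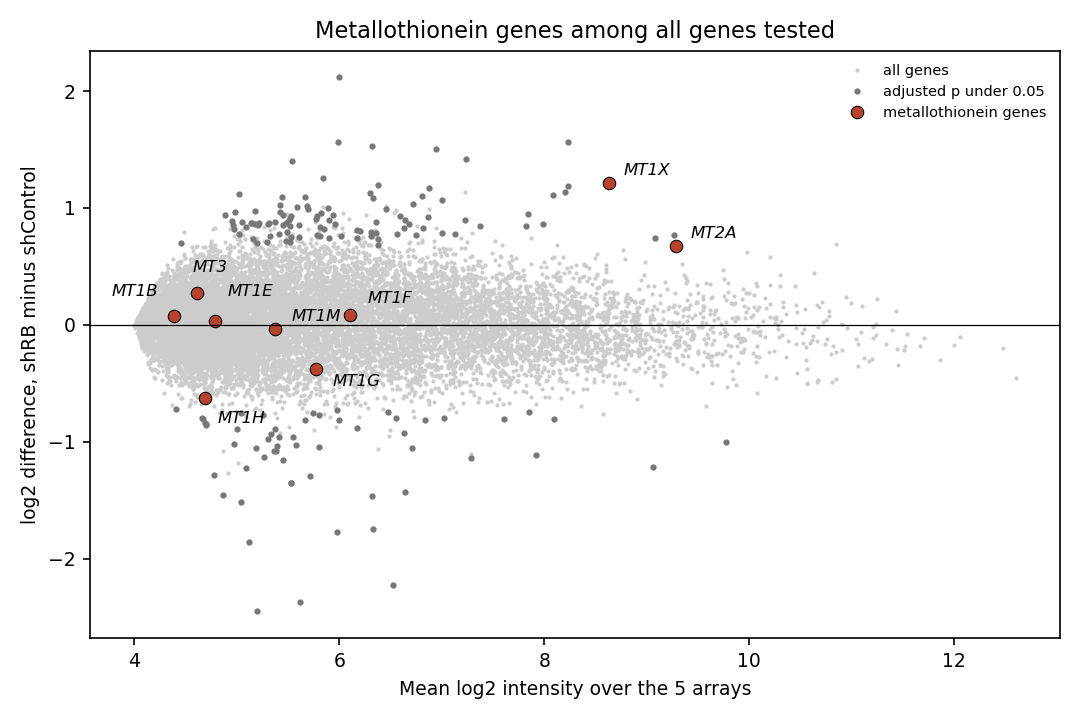
Difference between shRB and shControl (vertical axis, log2) against the mean log2 intensity over the 5 arrays (horizontal axis), with all 14812 genes in light grey, genes at an adjusted p under 0.05 in dark grey and the 9 metallothionein genes in red. MT1X at 1.21 and MT2A at 0.67 lie at the bright end, MT1H at -0.62 lies at the dim end, and MT1B, MT1E, MT1F and MT1M lie within 0.1 of 0.

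Differences within the family were read as the change in the log2 ratio of 2 members on the same array, for the 3 pairs among MT1X, MT2A and MT1H. These members were picked for their group differences, so the values are a description with no test. The log2 intensity of MT1X minus that of MT2A was -0.64, -0.58 and -0.09 in shRB, against -1.07 and -0.89 in shControl. It was thus larger on every shRB array, by 0.54 on average. For MT1X minus MT1H the values were 4.61, 4.42 and 5.00 in shRB, against 3.05 and 2.62 in shControl, a change of 1.84. MT2A minus MT1H changed by 1.30. The shRB values of MT1H lie near the floor, where differences are compressed, and with 16 subtracted and 4 added the changes were 2.39 for MT1X minus MT1H and 1.83 for MT2A minus MT1H. Paralogs are alike in sequence and may share signal on the array. The probe sequences were not used here, and sharing was not tested.

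Along chromosome 16 the measured members run from MT3 through MT2A, MT1E, MT1M, MT1B, MT1F, MT1G and MT1H to MT1X. MT1H and MT1X, with differences of opposite sign, are neighbours in this order. The pseudogene MT1L, between MT2A and MT1E, differed by 0.18 (adjusted p = 0.586), and MT4, the member known from squamous epithelia, by 0.08 (adjusted p = 0.859). Their shRB values were 4.54, 4.28 and 4.29 for MT1L and 5.31, 5.43 and 5.45 for MT4. The shControl values were 4.10 and 4.28 for MT1L and 5.04 and 5.61 for MT4.

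Genes just outside the cluster did not pass. Before it, OGFOD1, a ribosomal prolyl hydroxylase, differed by -0.10 (adjusted p = 0.791) and BBS2, a subunit of the ciliary BBSome, by 0.08 (adjusted p = 0.857). After it, NUP93 of the nuclear pore stood at 9.23, 9.16 and 8.73 in shRB, against 8.91 and 8.92 in shControl (difference 0.12, adjusted p = 0.761). The microRNA gene MIR138-2 differed by 0.05 (adjusted p = 0.896) and the copine CPNE2 by -0.13 (adjusted p = 0.708). The 95% intervals of NUP93 (-0.27 to 0.50) and BBS2 (-0.33 to 0.48) both end below the lower bound for MT1X.

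**Figure D3:**
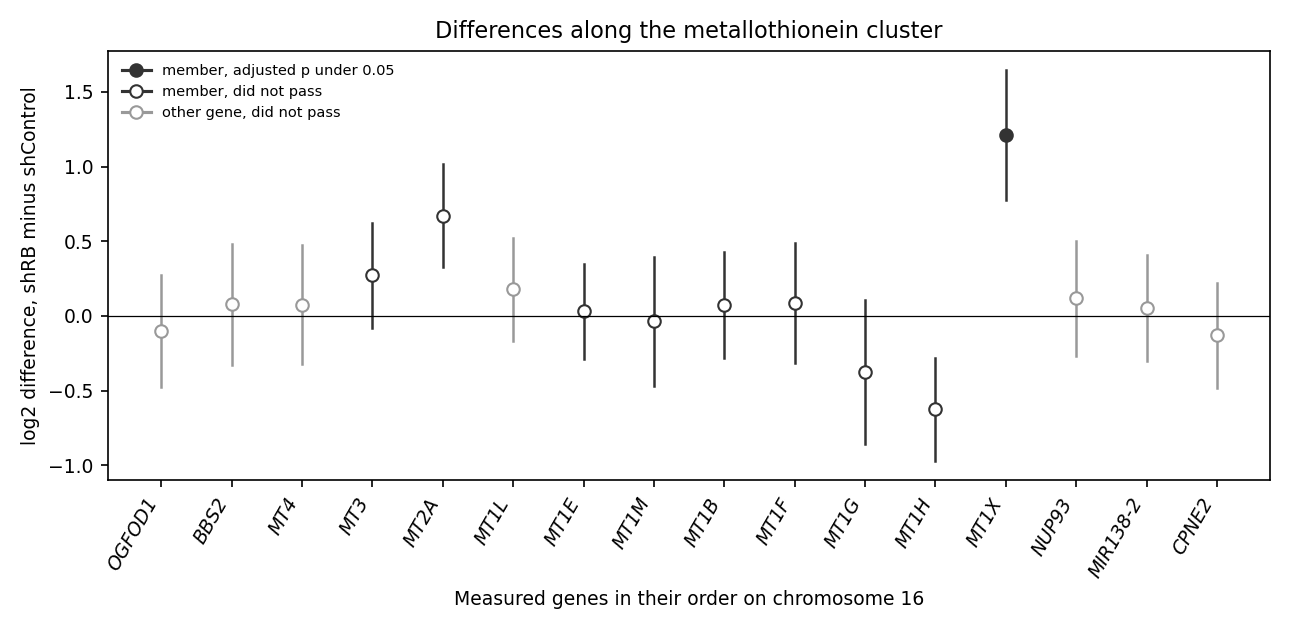
Log2 difference, shRB minus shControl (vertical axis), with its 95% interval from limma, for measured genes in their order on chromosome 16 (horizontal axis, not to distance). Black marks are metallothionein members and grey marks other genes, and a filled mark passed at an adjusted p under 0.05. MT1X, at the end of the cluster, is the filled mark at 1.21, beside MT1H at -0.62 and NUP93 at 0.12.

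Genes that sense or move zinc were mostly unmeasured, with 2 of 26 listed. MTF1, the zinc sensor that binds metal response elements, had a log2 intensity of 6.77, 6.98 and 6.89 in shRB, against 6.92 and 6.98 in shControl. The groups overlapped (difference -0.07, SE 0.15, 95% interval -0.40 to 0.25, adjusted p = 0.837). TMEM163, a zinc efflux transporter, had 5.37, 5.62 and 5.49 in shRB, against 5.16 and 5.44 in shControl (difference 0.20, adjusted p = 0.554). SLC30A1, the zinc exporter that MTF1 induces together with the metallothioneins, had no named probe set and is not analysed here.

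Of 18 copper-handling genes, 11 were measured and 0 passed (limma), with 4 at an unadjusted p under 0.05, 3 positive and 1 negative, beside 18.1% of all genes at that p. SCO2, a mitochondrial copper chaperone of cytochrome c oxidase, had 6.87, 6.60 and 6.78 in shRB, against 6.19 and 6.02 in shControl (difference 0.65, adjusted p = 0.0744). Its groups did not overlap, as in MT2A, and it passed in 3 of the 15 alternatives (adjusted p = 0.0332 to 0.0477). STEAP4, a metalloreductase, differed by 0.53 (adjusted p = 0.103), and by 0.95 with 16 subtracted and 4 added. Its shControl values of 4.45 and 4.63 lay near the floor at 4. COX11, which inserts copper into the same oxidase as SCO2, differed by 0.42 (adjusted p = 0.212), or 0.64 and 0.20 without shControl replicate 1 and 2. CCS, the copper chaperone of superoxide dismutase, stood at -0.42 (adjusted p = 0.198). The median of the list was 0.23, with 7 positive and 4 negative differences (63.6% positive, beside 53.8% of all genes).

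Of 32 genes of the oxidative stress response, 17 were measured and 0 passed (limma), with 2 at an unadjusted p under 0.05, beside 18.1% of all genes. Differences were positive in 14 and negative in 3 (82.4% positive, beside 53.8% of all genes), with a median of 0.13. GPX4, which reduces lipid hydroperoxides, had 9.24, 9.17 and 9.20 in shRB, against 8.75 and 8.57 in shControl. The groups were apart, and the difference of 0.54 (SE 0.15) did not pass (adjusted p = 0.0976), while it passed in 3 of the 15 alternatives (0.0107 to 0.0496). PGD, an NADPH-producing enzyme of the pentose phosphate pathway, stood at -0.39 (adjusted p = 0.222). The peroxidases GPX1 and PRDX6 differed by 0.31 (adjusted p = 0.311) and 0.27 (adjusted p = 0.357).

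Of 18 genes that glucocorticoids regulate, 12 were measured and 0 passed (limma), with 3 at an unadjusted p under 0.05, beside 18.1% of all genes. Their signs were mixed, 5 positive and 7 negative (41.7% positive, beside 53.8% of all genes), with a median of -0.02. The transcription factor KLF9 stood at -0.61 (adjusted p = 0.095), the lipase inhibitor ANGPTL4 at -0.67 (adjusted p = 0.11), the transcription factor ZBTB16 at 0.65 (adjusted p = 0.16) and the kinase SGK1 at 0.24 (adjusted p = 0.435). ANGPTL4 passed without shControl replicate 1, at -0.99 (adjusted p = 0.0233), and its difference was -0.35 without shControl replicate 2. ZBTB16 likewise stood at 0.96 without shControl replicate 1 and at 0.34 without shControl replicate 2, and did not pass in either fit.

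**Figure D4:**
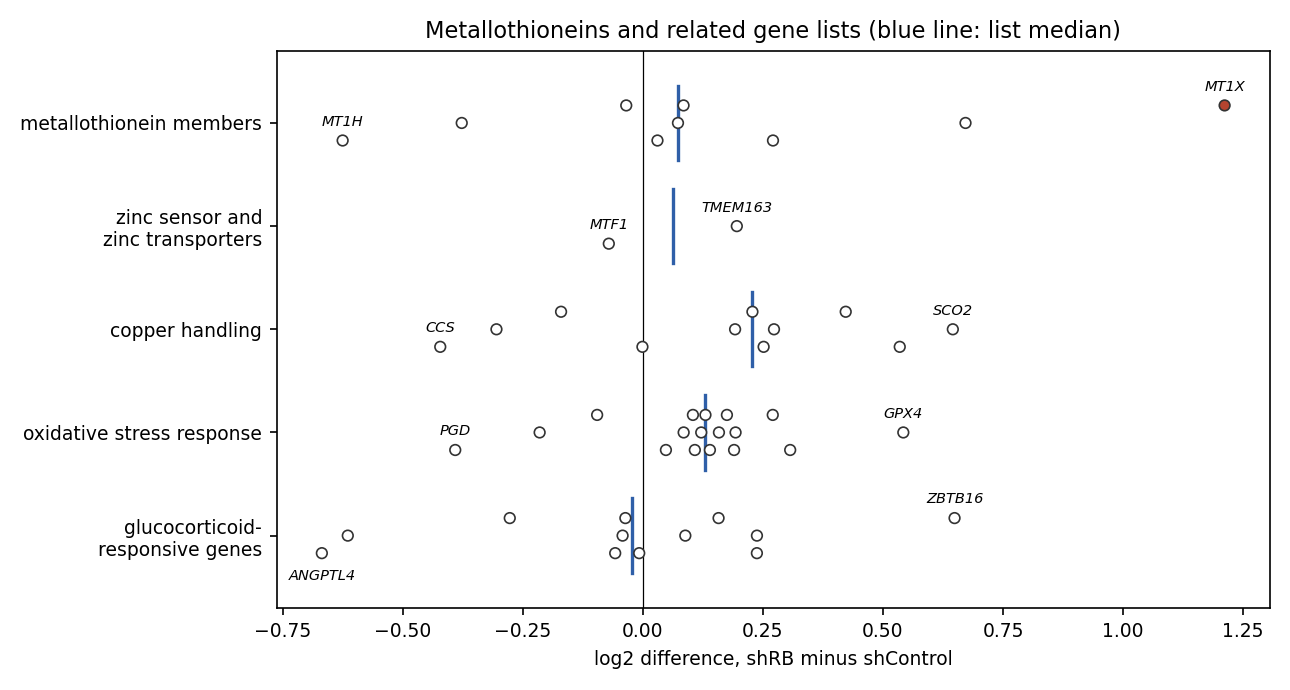
Log2 difference, shRB minus shControl (horizontal axis), of each measured gene of the metallothionein family and of 4 related lists (vertical axis, points spread within a list for legibility). Filled points passed at an adjusted p under 0.05, blue lines are list medians, and the outermost genes are named. MT1X at 1.21 is the filled point, and the medians lie between -0.02 and 0.23.

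The genes whose profile over the 5 arrays was most like that of MT1X were found by the root mean square difference of log2 values centred on each gene's mean. The nearest was TAB3, an adaptor of the TAK1 kinase, at a distance of 0.08, followed by the small Cajal body RNA gene SCARNA14 (0.11), GPC5-AS1 (0.14), the cytochrome oxidase subunit gene COX7B2 (0.14) and the noncoding gene SNHG10 (0.14). All 5 lie on chromosomes other than 16. TAB3 had 7.13, 7.05 and 7.84 in shRB, against 6.14 and 6.20 in shControl, so that shRB replicate 3 was the highest array there as in MT1X. Relative to the gene's mean, shRB replicate 3 stood at 0.89 for MT1X and at 0.72 to 0.97 for these 5 genes.

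MT2A stood at place 170 in the same ranking, at a distance of 0.33. Relative to its mean it stood at 0.32 in shRB replicate 3, -0.26 in shControl replicate 1 and -0.55 in shControl replicate 2, each nearer to 0 than the 0.89, -0.68 and -0.78 of MT1X. MT1H stood at place 14543. Since MT1X differed between the groups, genes near it in this measure differ too: the differences of the 5 were 0.94 for SNHG10 (adjusted p = 0.0638), 1.00 for SCARNA14 (0.0527), 1.13 for GPC5-AS1 (0.0134), 1.17 for TAB3 (0.0336) and 1.40 for COX7B2 (0.00311). COX7B2 passed in all 5 fits with an array left out (adjusted p at most 0.0482), TAB3 in none of them (0.0533 to 0.137) and GPC5-AS1 in those without a shControl array. With 16 subtracted and 4 added, COX7B2 (adjusted p = 0.0654), GPC5-AS1 (0.115) and TAB3 (0.157) did not pass. With the probe sets of TAB3 averaged, its difference was 0.77 (adjusted p = 0.0559), so its value and its call depend on the probe set used.

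**Figure D5:**
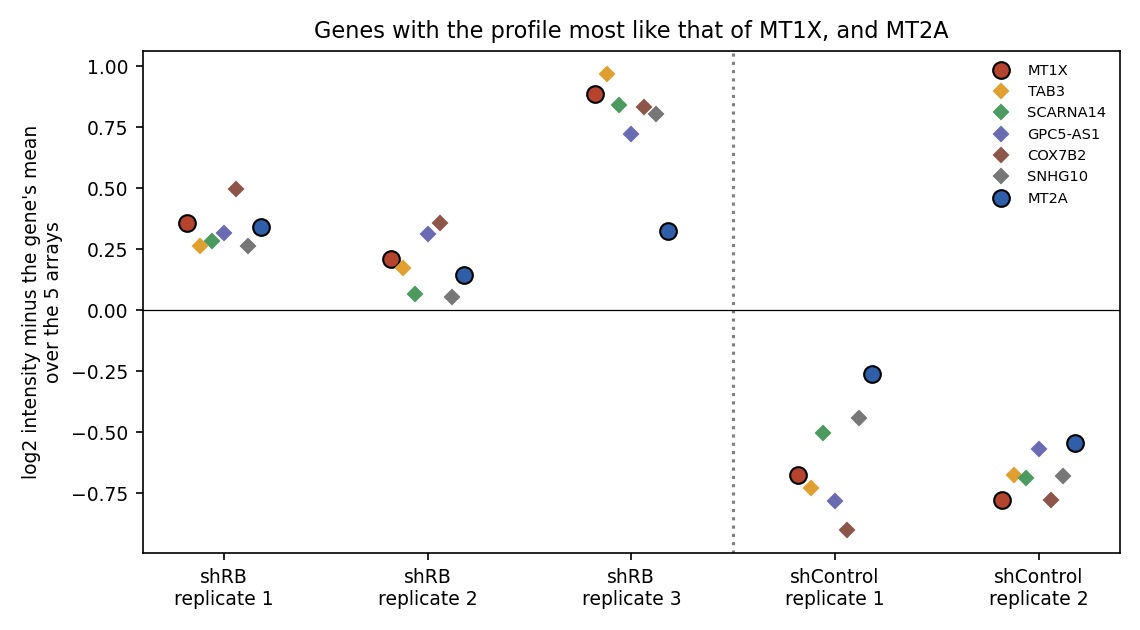
Log2 intensity minus the gene's own mean over the 5 arrays (vertical axis) on each array (horizontal axis, points of an array spread for legibility) for MT1X, the 5 genes nearest to it and MT2A. Circles are metallothionein genes and diamonds the other genes. In shRB replicate 3, MT1X stands at 0.89, MT2A at 0.32 and the other 5 genes at 0.72 to 0.97.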

How the data were processed

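Total RNA of 5 LNCaP samples was hybridised, as biotin-labelled cDNA, to single-colour arrays, per the labels' protocols. The values deposited by the authors are probe set intensities on a linear scale. How they were summarised, background-corrected or normalized is not stated in the labels, nor is a genome build. No value lay below 16, which may be an added constant; it compresses differences of dim genes. With 3 arrays against 2, precision is limited by their number.

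The platform annotation gave 1 gene symbol to 15835 of 44607 probe sets and several to 0, and the other 28772 stay unnamed here. RefSeq's GRCh38.p14 table updated the symbols by Entrez identifier (15835 matched). Each of 14812 genes kept its brightest probe set by mean log2 intensity (651 had several), with no filter on dim genes. Groups came from the sample titles. Log2 values were fitted by limma 3.58.1 under R 4.3.3 (2 groups, no covariate, two-sided), adjusted by Benjamini-Hochberg over all genes at 0.05, and the fit was tested on simulated data. Adjusted p-values come from this test unless another is named.

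The members and lists were chosen with earlier results of these data known. Genes named are the members, RB1, MTF1, SLC30A1, 3 measured genes on either side of the members, up to 4 genes with the smallest p per related list and the 5 profiles nearest to MT1X. TARP, HOXB13 and KRT18 were named after their values were seen. Alternatives were other normalizations, a filter on dim genes, other probe set rules, variance models, constants, the replicate number as a block and leaving out each array. Promoter letters were searched in RefSeq's promoter table with Python 3.11.15.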

Additional observations from a re-analysis of the deposited data

How the results depend on the processing

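MT1X was higher in shRB in all 15 alternatives, at 1.01 to 1.35, and passed in 10 of them. It did not pass with 16 subtracted and 4 added (1.25) or with the replicate block (1.01, adjusted p = 0.0991), and without 1 array it ranged from 1.01 to 1.35. MT1X and MT2A, 2 members, passed with genes below the median level left out, beside 385 of 7406 genes. That fit tested 5 members, without MT1B, MT1E, MT1H and MT3. Of all 9, the same 2 passed with an intensity trend and robust variances, beside 426 of 14812 genes. They also passed with a further 16 added, beside 246 of 14812 genes. With 16 subtracted and 4 added, limma called 0, with 3 at an unadjusted p under 0.05, beside 2373 of 14812 genes. With the replicate block it called 0, with 4 unadjusted, beside 1756 of 14812 genes. Without shRB replicate 1, 2 or 3, 0 members passed. Over all genes, the 159 calls became 385 without genes below the median level, 340 with each probe set on its own (44607 tested), 426 with a trend and robust variances, 88 with array weights, 246 with a further 16 added, 24 with the replicate block and 13 with 16 subtracted and 4 added, and 28, 22 and 22 without shRB replicate 1, 2 or 3, against 411 and 242 without shControl replicate 1 or 2. The share of increases, 64.8% as reported, was 33.3% with the block, 30.8% with 16 subtracted and 36.4% to 42.9% without 1 shRB array. The block rests on 2 shared numbers. Replicate 3 is in shRB only, so the block gave the same differences as leaving that array out, and these alternatives are not independent. Deviations from the group means of arrays with the same number correlated at -0.02 and 0.05. The deviations of the 2 shControl arrays mirror each other, so these values cannot tell whether a shared number means a shared culture.

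MT2A was higher in all 15 alternatives (0.53 to 0.82, adjusted p = 0.00231 to 0.295) and MT1H lower in all 14 it entered (-1.14 to -0.39, adjusted p = 0.0415 to 0.275). Signs turned only in small differences: with the block for MT1F (-0.043) and OGFOD1 (0.034), and without 1 array for MT1F (-0.043 to 0.244), MT1E (-0.025 to 0.086), MT1B (-0.05 to 0.20), MT1M (-0.38 to 0.31), MT4 (-0.21 to 0.36), OGFOD1 (-0.194 to 0.034), BBS2 (-0.23 to 0.39), MIR138-2 (-0.11 to 0.21) and CPNE2 (-0.28 to 0.02). The block gave the same differences as the fit without shRB replicate 3, so its turns for MT1F and OGFOD1 are listed again there. The cause of the turns was not tested. The 3 settings that called MT2A with all arrays also called SCO2 and GPX4, and the filter on dim genes called KLF9 and RB1. With 1 shControl array left, that array is assumed to vary like the others.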
